A study of Mus musculus with 18 samples.

Results

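In the mouse mammary tumour line 168FARN, the 3 libraries numbered replicate 3 stood apart from the 6 libraries numbered replicates 1 and 2, and the genes that mark them are described here. There is 1 replicate 3 library of WT, 1 of *Kmt2c* KO and 1 of *Kmt2d* KO cells, so these are 3 of the 9 libraries of 168FARN and of the 18 libraries in all. They were chosen by the number that ends their names in the 168FARN count table, after the gap to replicates 1 and 2 had been seen in these same counts. The differences in 168FARN are therefore given as a description, and a gene called there is marked by the size of its difference relative to the spread, which is not independent evidence of a difference. Tests are given for 3 other comparisons. They are the same contrast in line 67NR, replicate 2 against replicate 1 in 168FARN, and the difference between genotypes in the replicate 3 contrast. The choice did not use 67NR, but it favoured few differences between replicates 1 and 2 of 168FARN.

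RNA was measured by poly(A) RNA-seq in 168FARN and 67NR cells that were WT or had lost *Kmt2c* or *Kmt2d* (*Kmt2c* KO, *Kmt2d* KO), with 3 libraries of each genotype and line. Both are lines of non-metastatic mammary tumours grown in the same serum-containing DMEM. KMT2C and KMT2D are enhancer-associated histone H3K4 methyltransferases. The KO cells were sorted pools obtained by transient transfection of Cas9–GFP with 3 sgRNAs against exon 1, so they are mixtures of edited cells and not clones. The WT cells of 168FARN carry the name of a control sgRNA in the count table and the genotype WT in the labels, and the WT cells of 67NR are named WT in both. No collection date, passage number or sequencing run is given for a library in the labels. The methods of the study treat each collection time as a batch when heatmaps were drawn, but do not say which libraries were collected together. The study defines replicates of a line as cells collected 1 passage apart, so libraries of a genotype with different numbers are separate collections of the same cells. The p-values measure the spread between libraries that is left after the terms of each fit. If the libraries of 1 number were collected together, replicate 3 is 1 collection in each line. The p-values would then not measure the spread between collections. A replicate number is used below only as the name of a library.

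Cultured tumour cells shift their transcriptome with density, nutrient supply and growth rate. Cells that enter S phase transcribe the replication machinery under E2F factors, and cells that pass through G2 transcribe mitotic genes under the MuvB complex, which binds CHR elements. Shortage of sterols activates SREBP2, shortage of amino acids activates ATF4, growth factor withdrawal activates FOXO factors, and interferon activates STAT and IRF factors that drive antiviral genes and MHC class I. Each of these programmes has well-known target genes, which were used as lists.

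Promoter sequences of 6 genes are printed here as examples from the lists of DNA replication, mitosis, sterol synthesis, MHC class I, interferon-stimulated genes and ATF4, because each holds a match to one of the motifs searched. Each is the 250 bases before the RefSeq start of the gene in GRCm38.p6, written 5′ to 3′ on the strand of the gene, with every match to the element in capitals on either strand. In *Mcm5* (chr8:75109259-75109508, plus strand) the capitals mark E2F matches, in *Cdc20* (chr4:118437344-118437593, minus strand) and *Idi1* (chr13:8885356-8885605, plus strand) CCAAT boxes, in *B2m* (chr2:122147437-122147686, plus strand) and *Bst2* (chr8:71537473-71537722, minus strand) interferon-stimulated response elements, and in *Nupr1* (chr7:126625471-126625720, minus strand) a C/EBP-ATF element.
Mcm5: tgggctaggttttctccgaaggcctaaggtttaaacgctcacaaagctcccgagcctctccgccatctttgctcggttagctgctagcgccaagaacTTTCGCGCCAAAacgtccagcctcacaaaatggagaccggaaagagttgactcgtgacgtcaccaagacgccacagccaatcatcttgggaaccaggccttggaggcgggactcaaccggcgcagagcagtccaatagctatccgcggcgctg
Cdc20: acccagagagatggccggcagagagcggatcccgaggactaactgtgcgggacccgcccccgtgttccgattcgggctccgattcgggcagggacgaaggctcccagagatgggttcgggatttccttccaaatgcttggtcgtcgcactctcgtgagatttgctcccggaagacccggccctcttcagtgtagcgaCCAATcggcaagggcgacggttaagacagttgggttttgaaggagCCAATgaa
Idi1: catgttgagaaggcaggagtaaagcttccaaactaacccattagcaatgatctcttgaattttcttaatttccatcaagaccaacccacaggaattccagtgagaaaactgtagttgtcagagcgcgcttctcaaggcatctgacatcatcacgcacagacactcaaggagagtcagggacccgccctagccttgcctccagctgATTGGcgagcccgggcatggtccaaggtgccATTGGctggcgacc
B2m: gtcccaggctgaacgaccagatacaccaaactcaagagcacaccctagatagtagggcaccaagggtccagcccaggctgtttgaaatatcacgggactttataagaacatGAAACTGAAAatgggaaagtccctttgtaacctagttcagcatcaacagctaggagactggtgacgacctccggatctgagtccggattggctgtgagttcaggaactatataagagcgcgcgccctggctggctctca
Bst2: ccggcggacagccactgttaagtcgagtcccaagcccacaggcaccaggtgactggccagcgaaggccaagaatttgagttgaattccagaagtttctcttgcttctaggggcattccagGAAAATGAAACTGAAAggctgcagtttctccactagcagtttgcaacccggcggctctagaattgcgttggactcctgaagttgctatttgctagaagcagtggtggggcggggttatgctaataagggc
Nupr1: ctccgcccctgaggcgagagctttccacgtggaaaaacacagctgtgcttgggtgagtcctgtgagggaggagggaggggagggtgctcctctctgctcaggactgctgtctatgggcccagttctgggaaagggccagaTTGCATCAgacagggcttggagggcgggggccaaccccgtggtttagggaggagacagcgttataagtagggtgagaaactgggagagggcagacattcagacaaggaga

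The 7 motifs searched on both strands were E2F (TTTNGCGC), CHR (TTTGAA), the CCAAT box (CCAAT), the sterol regulatory element (TCACNCCAC), the interferon-stimulated response element (TTTC, any 2 bases, TTTC), the C/EBP-ATF element (TGATGNAA) and the E-box (CACGTG), where N is any base. RefSeq promoters were found for 9380 of the 12253 genes tested in 168FARN, which is 76.6%. The E2F letters stood in 4 of 32 promoters of the DNA replication list (12.5%), against 2.2% of the tested genes, and the 4 are *Mcm5*, *Mcm6*, *Pola1* and *Rfc3*. The CHR letters stood in 7 of 25 mitotic promoters (28%), against 10.3%. CCAAT boxes stood in 20 of 25 mitotic promoters (80%) and 14 of 15 promoters of sterol synthesis (93.3%), against 37.4% of the tested genes. The interferon-stimulated response element stood in 12 of 27 promoters of the interferon-stimulated list (44.4%) and 2 of 15 of the MHC class I list (13.3%), against 2.52%. The C/EBP-ATF element stood in 6 of 26 promoters of the ATF4 list (23.1%), against 1.92%. The sterol regulatory element was found in 0 of 15 sterol promoters and the E-box in 1 of 24 promoters of the ribosome biogenesis list, in these windows of 250 bases. Other lists held the same letters. E2F letters stood in 3 of 15 promoters of the MHC class I list (20%), and CHR letters in 6 of 27 of the interferon-stimulated list (22.2%). CCAAT boxes stood in 16 of 18 promoters of endoplasmic reticulum chaperones (88.9%). The interferon-stimulated response element reached at most 18.2% outside the interferon-stimulated list. These shares do not show that a motif is particular to 1 list. Some letters overlap, such as the 2 E2F matches of *Mcm5*, and a match is a match of letters only.

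Reads counted on genes came to between 27622049 and 43427382 in the replicate 3 libraries of 168FARN and to between 14359760 and 39237689 in the other 6. The first principal component of log2 CPM, with 66.1% of the variance, placed the 3 replicate 3 libraries at 70.4 to 84.4 and the other 6 at -45.8 to -32.3, while genotype lay along the second component with 11.7%. Of 10 markers of a mesenchymal mammary tumour line, 9 were over 1 CPM in both sets of 168FARN libraries, with summed levels of 10060 to 14760 CPM in replicates 1 and 2 and of 7611 to 10400 CPM in replicate 3. Epithelial markers summed to 97.8 to 124 CPM in replicates 1 and 2 and to 286 to 390 CPM in replicate 3, almost all of it *Krt8*, while *Epcam*, *Krt5*, *Cldn4* and *Cldn7* had 0 reads. Macrophage and haematopoietic markers summed to 79.5 to 99.5 CPM in replicates 1 and 2 and to 19.8 to 21.5 CPM in replicate 3. Most of both sums was *Cd68* and *Cd14*, which differed in opposite directions. Mean *Cd68* was 84.1 CPM in replicates 1 and 2 and 4.26 CPM in replicate 3, and mean *Cd14* was 7.97 and 14.7 CPM. *Tyrobp* had 0 reads, while *Ptprc* and *Csf1r* had at most 4 in any library. Endothelial markers summed to 0.919 to 5.39 CPM in replicates 1 and 2 and to 0.962 to 4.75 CPM in replicate 3. These are bulk samples, so fewer cells of one kind and less RNA per cell cannot be told apart for any gene below.

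CPM are edgeR's counts scaled to library size with TMM factors, log2 fold changes are of replicate 3 against replicates 1 and 2 with genotype as a block, and a gene is called when its adjusted p is under 0.1 and its absolute log2 fold change is over 0.6. Of 12253 genes, 2739 were called higher in the replicate 3 libraries (22.4%) and 3173 lower (25.9%), so 5912 were called in either direction (48.2%). Nothing is read from these shares, because the contrast is the one used to choose the libraries. The median absolute log2 fold change over all genes was 0.60, and it was over 1 in 3531 genes, over 2 in 942 and over 3 in 322. In 3438 genes (28.1%) all 3 replicate 3 libraries lay above the other 6, and in 3411 genes (27.8%) all 3 lay below. Within each genotype taken singly, in the order WT, *Kmt2c* KO, *Kmt2d* KO, 5886, 5901 and 5879 of the 5912 called genes had the sign of the joint fit, from which they had been selected and which holds the same libraries. Over all 12253 genes tested, 78.1% had 1 sign in all 3 genotypes.

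**Figure D1:**
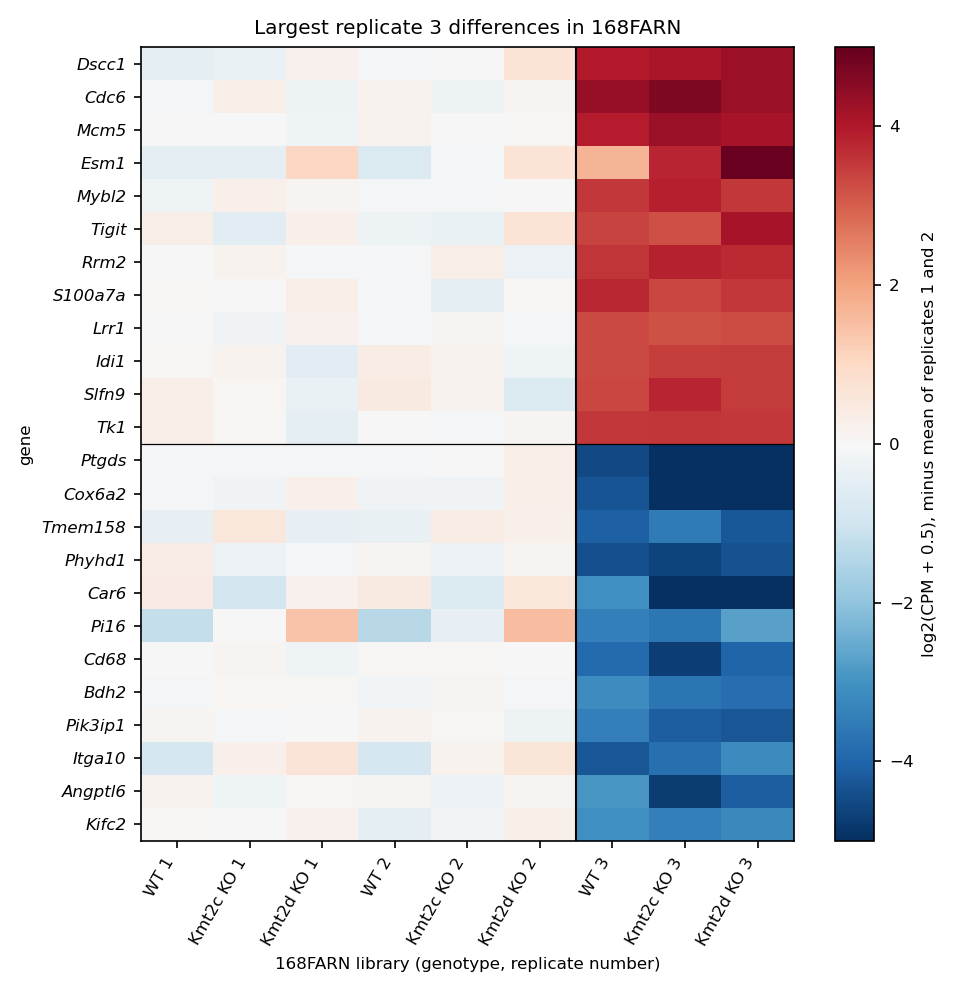
Levels of the 12 higher and 12 lower genes with the largest replicate 3 differences in the 9 libraries of 168FARN, as log2(CPM + 0.5) minus the mean of the 6 replicate 1 and 2 libraries. Colours saturate at 5 in either direction; the 3 columns on the right, replicate 3, differ from the 6 on the left in every row.

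The 12 genes with the largest differences in each direction, among those with a mean of at least 10 CPM in the higher set and no overlap, held many genes of DNA replication on the higher side and secreted, metabolic and membrane proteins on the lower side. *Cdc6*, which loads the replicative helicase onto origins (chromosome 11, 98769115 to 98785254 in mm9), lay between 1.73 and 2.73 CPM in replicates 1 and 2 (median 2.23) and at 54.4, 67.7 and 52.9 CPM in replicate 3, where 3 values are given in the order WT, *Kmt2c* KO, *Kmt2d* KO here and below. The groups did not overlap, and the log2 fold change of *Cdc6* was 4.75 (SE 0.14). *Dscc1*, a subunit of the clamp loader that acts in sister chromatid cohesion, went from at most 1.48 CPM to 18.7, 20.6 and 23.6 CPM in the same order of genotypes, a log2 fold change of 4.83 (SE 0.19). *Mcm5*, a subunit of the replicative helicase (chromosome 8, 77633427 to 77652338 in mm9), lay between 8.79 and 11.5 CPM in replicates 1 and 2 and at 161, 211 and 184 CPM in replicate 3, with a log2 fold change of 4.18 (SE 0.11). The same side held *Mybl2* (3.81), a transcription factor of the cell cycle, *Rrm2* (3.72) and *Tk1* (3.61), which make deoxynucleotides, *Lrr1* (3.65), which unloads the replisome, and *Idi1* (3.64), an isomerase of sterol synthesis. It also held *Esm1* (3.96), an endothelial proteoglycan, *Tigit* (3.73), an inhibitory receptor of lymphocytes, *S100a7a* (3.66), a calcium-binding protein, and *Slfn9* (3.63) of the Schlafen family. *Esm1* was uneven between genotypes, at 6.39, 29.3 and 65.3 CPM in replicate 3, over 0.804 to 3.85 CPM in replicates 1 and 2.

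*Ptgds*, which makes prostaglandin D2 (chromosome 2, 25322229 to 25325566 in mm9), lay between 21.0 and 28.3 CPM in all 6 libraries of replicates 1 and 2 and at 0.511, 0.107 and 0.222 CPM in replicate 3, a log2 fold change of -6.24 (SE 0.28). *Cox6a2*, the muscle form of a cytochrome c oxidase subunit, lay between 107 and 153 CPM and then at 5.67, 0.907 and 1.26 CPM, a log2 fold change of -5.60 (SE 0.55). *Cd68*, a lysosomal membrane protein often used as a macrophage marker, lay between 71.2 and 91.6 CPM and then at 5.27, 2.77 and 4.74 CPM (log2 fold change -4.32, SE 0.18). The other lower genes of this size were *Tmem158* (-4.92), a membrane protein induced by RAS, *Phyhd1* (-4.84), a dioxygenase, *Car6* (-4.68), a secreted carbonic anhydrase, *Pi16* (-4.56), a peptidase inhibitor of fibroblasts, *Bdh2* (-4.19), a dehydrogenase, *Pik3ip1* (-4.17), an inhibitor of PI3K, *Itga10* (-4.02), a collagen receptor, *Angptl6* (-3.98), a secreted angiopoietin-like protein, and *Kifc2* (-3.95), a kinesin. In all 12 the replicate 3 libraries lay below the other 6, as the naming rule required.

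The replicate 3 libraries held more mRNA of almost every gene of S phase and mitosis on the lists. Counts on every list stand beside 22.4% higher and 25.9% lower of all genes tested in 168FARN. In 67NR those shares were 15.3% and 13.4%. Nothing particular to a list is read from counts near these shares. Of 40 DNA replication genes tested in 168FARN, 38 were called higher and 1 lower, with a median log2 fold change of 2.30, where the median of all tested genes was -0.01. The lower gene was *Cdt1* (-0.68), a licensing factor destroyed as S phase begins, which is named after its value was seen. Of 30 mitotic genes, 30 were called higher, with a median of 1.94. *Mcm4*, another helicase subunit, lay between 24.9 and 35.7 CPM in replicates 1 and 2 and at 270, 383 and 325 CPM in replicate 3. *Tyms*, thymidylate synthase, was at 14.0 to 17.3 CPM and then at 164, 158 and 158 CPM. Neither gene overlapped between the sets, with log2 fold changes of 3.49 and 3.34. Among mitotic genes, *Mki67*, the antigen of cycling cells, was at 257 to 389 CPM and then at 1100, 1380 and 1220 CPM (log2 fold change 2.03, SE 0.09). *Cdc20*, an activator of the anaphase-promoting complex, went from 37.7 to 52.4 CPM in replicates 1 and 2 to 166, 174 and 164 CPM (1.98, SE 0.09), and *Foxm1*, a transcription factor of mitotic genes, had 2.73 (SE 0.09). None of the 3 overlapped between the sets. The shift was close in the 3 genotypes, with list medians of 2.22, 2.31 and 2.28 for DNA replication and of 2.02, 1.86 and 1.98 for mitosis in the same order of genotypes.

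Cyclin E and its partners went with them and inhibitors of cyclin-dependent kinases did not. *Ccne2* and *Ccne1*, the cyclins of S phase entry, had log2 fold changes of 3.13 (SE 0.18) and 2.36 (SE 0.14). *Ccne2* lay at 1.06 to 2.85 CPM in replicates 1 and 2 and at 15.5, 20.1 and 18.2 CPM in replicate 3. *Cdk2* (1.30), *E2f1* (1.30) and *Rbl1* (2.15) were also higher. *Cdkn2a*, which encodes p16 and p19ARF, had -1.38, *Cdkn1a*, which encodes p21, -0.99 and *Cdkn1b*, which encodes p27, -0.92. The D cyclins shown differed. *Ccnd1* was at 691 to 994 CPM and then at 1540, 2070 and 1830 CPM, higher without overlap. *Ccnd2* was at 124 to 174 CPM and then at 153, 144 and 136 CPM, so cyclin D2 overlapped between the sets. Of 18 genes on the list of G1 cyclins and CDK inhibitors, 6 were called higher and 5 lower, and in 67NR 6 of 18 rose and 2 fell.

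In 67NR, where the test is independent of the choice of libraries, 13665 genes were tested, of which 2096 rose in replicate 3 (15.3%) and 1826 fell (13.4%). The median of all these log2 fold changes was -0.02. All 30 mitotic genes rose there, with a median log2 fold change of 2.14, and 34 of 40 DNA replication genes rose and 0 fell, with a median of 1.56. *Tk1*, thymidine kinase, was among the genes that rose with the smallest p. It lay between 22.7 and 31.0 CPM in the 6 libraries of replicates 1 and 2 of 67NR and at 127, 122 and 140 CPM in replicate 3, a log2 fold change of 2.24 (SE 0.10, edgeR quasi-likelihood test, adjusted p = 8.96e-08). *Cdc6* in 67NR went from 3.09 to 7.88 CPM up to 32.6, 38.4 and 31.6 CPM (log2 fold change 2.59, SE 0.17, edgeR adjusted p = 6.42e-07). *Ccne1* rose by 1.09 (edgeR adjusted p = 0.000104), whereas *Ccne2* had a log2 fold change of 0.33 (SE 0.21, edgeR adjusted p = 0.219) and overlapped. The other genes among the 5 with the smallest p were *Fignl1* (2.48), which acts in recombination repair, the tubulins *Tubb4b* (2.05) and *Tuba1b* (1.96) and *Rrm1* (2.13), the large subunit of ribonucleotide reductase. Their log2 fold changes in 168FARN were 2.45, 1.90, 2.59 and 2.80.

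**Figure D2:**
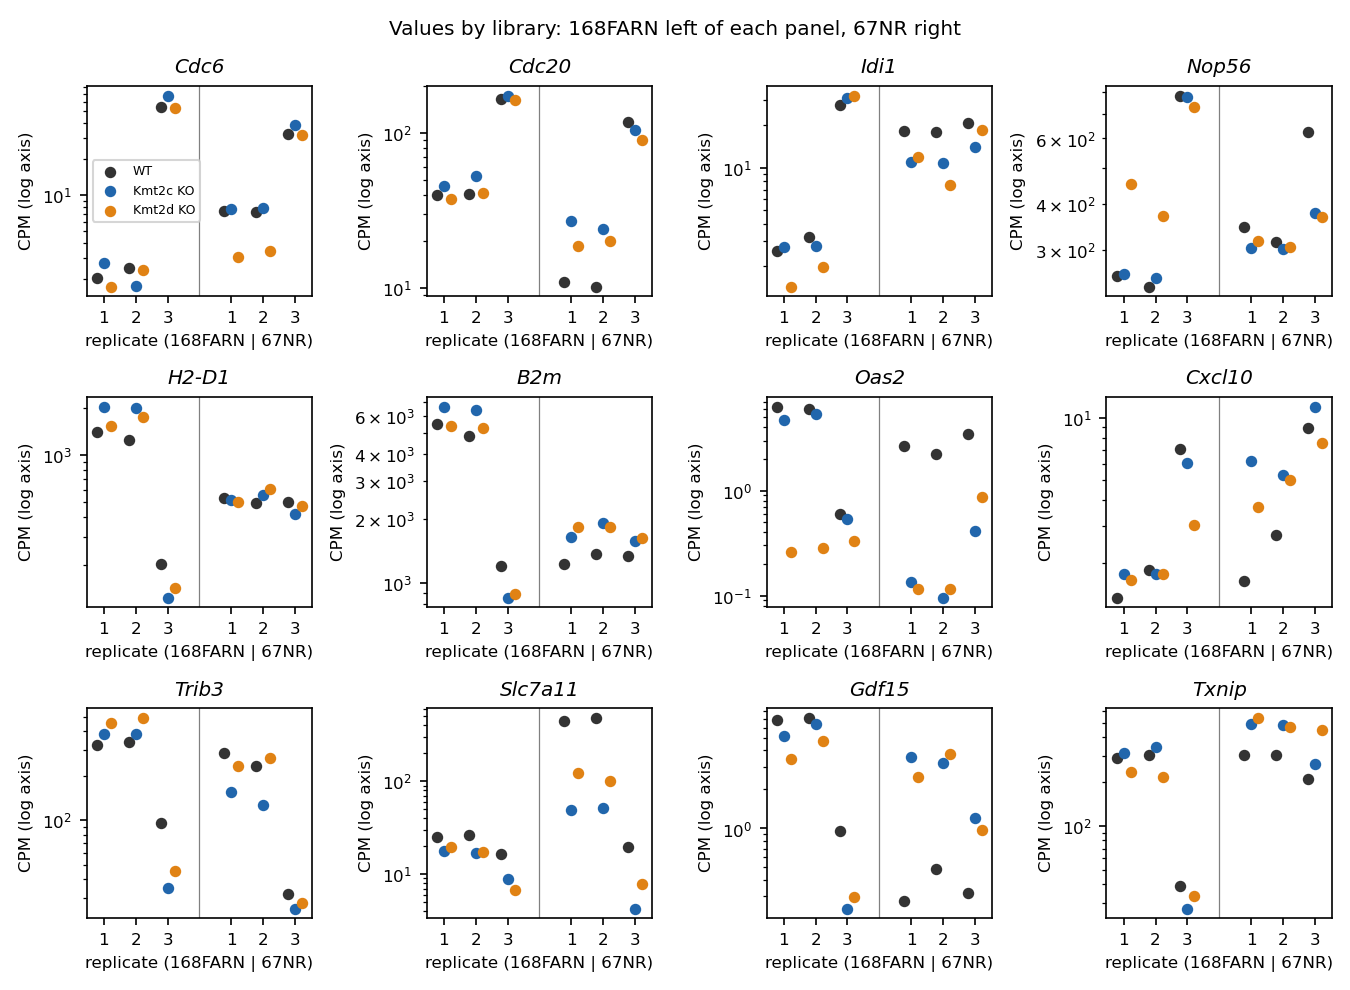
CPM after TMM scaling, on a log axis, of 12 genes in every library, with replicate number on the x axis, 168FARN on the left and 67NR on the right of each panel and 1 point per library coloured by genotype. *Cdc6* and *Cdc20* are higher and *Trib3* is lower in replicate 3 of both lines, whereas *H2-D1* and *B2m* are lower in replicate 3 of 168FARN and had log2 fold changes of -0.21 and -0.10 in 67NR.

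Enzymes of sterol synthesis were higher in the replicate 3 libraries. Of 23 genes on the list, 21 were called higher and 0 lower, with a median log2 fold change of 1.61. *Idi1*, which isomerises isopentenyl diphosphate, was at 1.43 to 3.25 CPM in replicates 1 and 2 of 168FARN and at 27.7, 31.4 and 32.5 CPM in replicate 3. The sets did not overlap, with a log2 fold change of 3.64 (SE 0.16). *Mvk* (2.24), *Cyp51* (2.25), *Nsdhl* (2.14) and the sterol carrier *Stard4* (2.33) were higher without overlap. Fatty acid synthesis was higher to a lesser degree, with 7 of 14 genes called higher and 0 lower and a median of 0.58. Its leading genes were the desaturase *Fads2* (2.11), the citrate lyase *Acly* (1.55), the elongase *Elovl6* (1.33) and *Fasn* (0.92). In 67NR, 17 of 22 sterol genes rose and 0 fell, with a median of 0.92. *Cyp51*, the lanosterol demethylase, rose there by 1.37 (SE 0.13, edgeR adjusted p = 5.35e-06). *Idi1* in 67NR had a log2 fold change of 0.51 (SE 0.16, edgeR adjusted p = 0.0229), under the fold that a call needs, and 2 of 14 fatty acid genes rose.

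Nucleolar factors that build ribosomes were higher in the replicate 3 libraries of 168FARN, while mRNAs of the ribosomal proteins were lower. Of 31 genes of ribosome biogenesis and MYC targets, 25 were called higher and 1 lower, with a median of 1.03, and the lower gene was *Myc* itself, at 302 to 510 CPM and then at 223, 192 and 197 CPM (-0.92, SE 0.12). *Dkc1*, the pseudouridine synthase of snoRNPs, was at 36.3 to 55.4 CPM and then at 154, 199 and 192 CPM (2.10, SE 0.10). *Srm*, spermidine synthase, had 1.77, *Bop1* 1.61, *Rrp12* 1.35 and *Nop56* 1.38, all without overlap. Of 77 cytosolic ribosomal protein genes, 46 were called lower and 0 higher, with a median of -0.68, and 51 had all 3 replicate 3 libraries below the other 6, against 27.8% of all genes tested. *Rpl28* lay between 2530 and 3850 CPM and then at 1300, 1130 and 1080 CPM (-1.47, SE 0.14). *Rps2* went the other way, with 456 to 782 CPM in replicates 1 and 2, 931, 678 and 844 CPM in replicate 3 and a log2 fold change of 0.44, and its sets overlapped. Counts of ribosomal protein genes can be shared with their many processed pseudogenes, so single values are uncertain. By genotype the median of the list was -0.23, -1.06 and -0.74, and without *Kmt2c* KO replicate 3 the list had 28 genes called lower and 2 higher.

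In 67NR, of 77 ribosomal protein genes 21 rose and 0 fell. Their median was 0.40, and it was 0.17 with the trend on transcript length removed and 0.23 without WT replicate 3. *Rpl31* rose by 0.71 (SE 0.12, edgeR adjusted p = 0.000505). Of 31 ribosome biogenesis genes 1 rose and 4 fell, and the median was -0.06, with a range of -0.09 to 0.003 over the alternatives. *Dkc1* rose by 1.09 (edgeR adjusted p = 4.56e-06), and *Odc1*, the first enzyme of polyamine synthesis, fell by 0.76 on the log2 scale (edgeR adjusted p = 0.00011), against a log2 fold change of 1.39 in 168FARN. *Myc* fell by 0.69 on the log2 scale in 67NR (edgeR adjusted p = 0.000367).

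The proteasome, glycolysis and the heat shock chaperones were on the higher side in 168FARN. Of 31 subunits of the constitutive proteasome 18 were called higher and 0 lower, with a median of 0.70, led by *Psmd13* (1.81). Of 17 glycolytic genes 8 were called higher and 2 lower. *Ldha*, lactate dehydrogenase A, was at 196 to 315 CPM in replicates 1 and 2 and at 1630, 1270 and 1550 CPM in replicate 3 (2.57, SE 0.11), and *Pgk1* (2.63), *Tpi1* (2.16) and *Pkm* (1.45) were higher without overlap. Of 18 heat shock genes 9 were called higher and 1 lower. *Hsp90aa1*, the inducible HSP90, was at 653 to 1020 CPM and then at 3370, 2970 and 3420 CPM (1.95, SE 0.10), and the mitochondrial chaperonin *Hspd1* had 1.65. In 67NR, 9 of 31 proteasome genes, 9 of 17 glycolytic genes and 4 of 18 heat shock genes rose and 0, 1 and 0 fell. *Hsp90aa1* rose there by 0.98 (SE 0.11, edgeR adjusted p = 1.8e-05), while *Hsph1*, at 1.55 in 168FARN, had a log2 fold change of -0.51 in 67NR (edgeR adjusted p = 0.000957). Nuclear-encoded genes of oxidative phosphorylation were split in 168FARN, with 14 of 74 called higher, 7 lower and a median of -0.03, and *Atp5g3* (1.17) and *Ndufa6* (-1.85) at the extremes. Without WT replicate 3, 12 were higher and 16 lower, without *Kmt2c* KO replicate 3, 15 were higher and 4 lower, and the median ran from -0.24 to 0.17 over the alternatives. In 67NR, 42 of the 74 rose and 0 fell, with a median of 0.70, which was 0.28 with the trend on transcript length removed. Genes of the mitochondrial genome were not analysed here. Hypoxia genes were also split, with 6 of 22 called higher and 4 lower in 168FARN, among them *Car9* (1.47) and *Ddit4* (-1.70), and with 7 of 21 rising and 3 falling in 67NR. Of all genes tested, 22.4% were called higher and 25.9% lower in 168FARN, and 15.3% rose and 13.4% fell in 67NR.

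**Figure D3:**
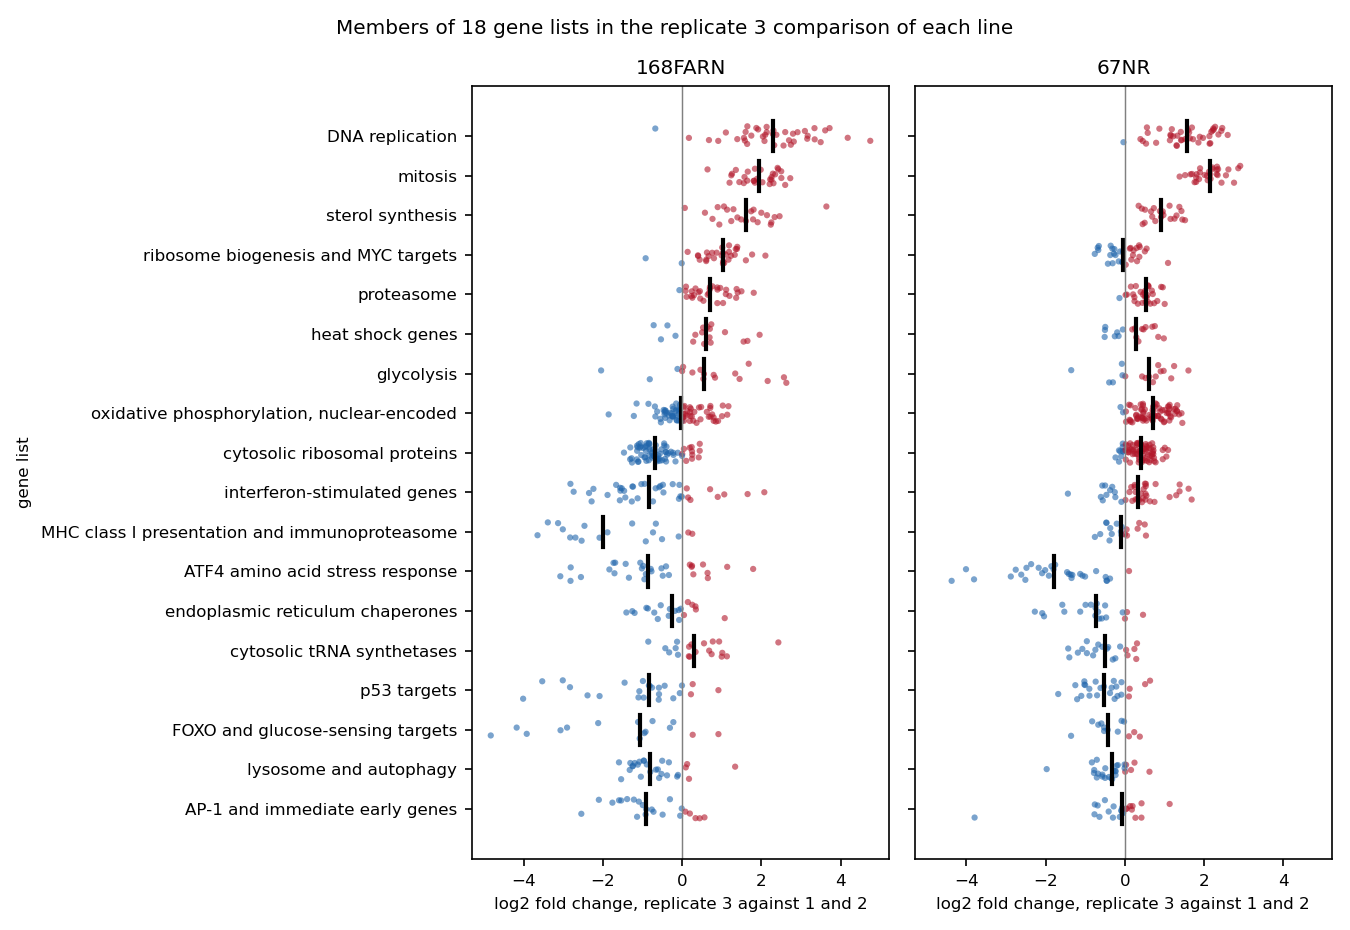
Log2 fold changes of replicate 3 against replicates 1 and 2 for the members of 18 gene lists in 168FARN (left) and 67NR (right), with 1 point per gene, red above 0 and blue below, and a black bar at the list's median. DNA replication and mitosis lie to the right in both lines, whereas ribosomal proteins have a median of -0.68 in 168FARN and 0.40 in 67NR.

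Antigen presentation by MHC class I was lower in the replicate 3 libraries of 168FARN, from the heavy and light chains to peptide transport and the immunoproteasome. Of 18 genes on the list 14 were called lower and 0 higher, with a median of -1.98. In the same number, 14, all 3 libraries lay below the other 6, against 27.8% of all genes tested. *H2-D1*, a class I heavy chain, lay between 1240 and 2030 CPM in replicates 1 and 2 and at 202, 123 and 141 CPM in replicate 3, a log2 fold change of -3.39 (SE 0.22). *B2m*, its light chain, was at 4860 to 6670 CPM and then at 1200, 853 and 892 CPM (-2.54, SE 0.15). Heavy chains share sequence with each other, so reads may have been split between them, whereas *B2m* is a single gene. The peptide transporter genes *Tap1* (-2.82) and *Tap2* (-3.01) and the immunoproteasome genes *Psmb9* (-3.65) and *Psmb8* (-2.69) were lower without overlap. The constitutive proteasome, described above, was on the other side. In 67NR, 2 of 18 genes of the list fell and 0 rose, with a median of -0.09. *H2-D1* had a log2 fold change of -0.21 there (SE 0.10, edgeR adjusted p = 0.124), at 492 to 605 CPM and then at 499, 418 and 475 CPM, and *B2m* one of -0.10 (SE 0.10, edgeR adjusted p = 0.452). *Tap1* fell by 0.76 (edgeR adjusted p = 0.000512).

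Interferon-stimulated genes were lower on balance, but less evenly than MHC class I. Of 38 genes tested 21 were called lower and 4 higher, with a median of -0.84. In 7 of them all 3 replicate 3 libraries lay below the other 6, against 27.8% of all genes tested, and in 3 they lay above, against 28.1%. *Oas2*, an antiviral oligoadenylate synthetase, was at 6.33 and 5.99 CPM in WT and at 4.72 and 5.42 CPM in *Kmt2c* KO libraries of replicates 1 and 2, but at 0.260 and 0.283 CPM in *Kmt2d* KO libraries, and in replicate 3 it was at 0.604, 0.534 and 0.333 CPM. The *Kmt2d* KO libraries were thus low for *Oas2* under every number, and the list median by genotype was -1.19, -0.76 and -0.0036. *Bst2*, an antiviral membrane protein, was at 61.5 to 121 CPM and then at 17.1, 17.4 and 10.2 CPM (-2.74, SE 0.09), without overlap. *Irf7*, the transcription factor that amplifies interferon, had -2.24 (SE 0.20), although its sets overlapped. The higher genes were *Oasl1* (2.07), *Cxcl10* (1.65), *Ifit1* (1.06) and *Ifit2* (0.90). *Cxcl10*, a chemokine, was at 1.36 to 1.85 CPM and then at 7.06, 6.03 and 3.04 CPM. The interferon list therefore held members of both directions. In 67NR, 9 of 40 genes rose and 2 fell, with a median of 0.34 that was 0.17 without WT replicate 3, and *Cxcl10* rose by 1.30 (SE 0.24, edgeR adjusted p = 0.000793).

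Inflammatory cytokines and NF-kappaB targets were split in 168FARN, with 10 of 20 called lower and 4 higher. *Lcn2*, a siderophore-binding protein, had -3.72 (SE 0.27), and the NF-kappaB subunit *Relb* (-2.15) and the inhibitor *Nfkbia* (-1.30) were lower without overlap. The chemokine *Cxcl5* (1.88) and the alarmin *Il33* (1.78) were higher. In 67NR, 12 of 32 genes fell and 4 rose, among them *Lcn2*, which fell by 1.68 (edgeR adjusted p = 0.000925), and *Cxcl5*, which rose by 1.48 (edgeR adjusted p = 2.25e-06).

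Stress genes controlled by ATF4 were lower in the replicate 3 libraries of both lines, although different members led. In 168FARN 17 of 30 genes were called lower and 4 higher, with a median of -0.85. *Ddit3*, the pro-apoptotic factor CHOP, lay between 512 and 714 CPM in replicates 1 and 2 and at 96.6, 68.8 and 63.9 CPM in replicate 3 (-3.07, SE 0.13). *Trib3*, a pseudokinase induced by CHOP and ATF4, was at 324 to 494 CPM and then at 96.0, 35.0 and 45.7 CPM (-2.81, SE 0.31), and the stress protein *Nupr1* had -2.82 (SE 0.16). In these 3 genes the sets did not overlap. *Asns*, asparagine synthetase, was at 196 to 328 CPM and then at 350, 212 and 291 CPM (0.24, SE 0.16), and *Psat1*, an enzyme of serine synthesis, was higher (1.79, SE 0.09). In 67NR, 25 of 30 genes fell and 0 rose, with a median of -1.78. *Slc7a11*, the cystine transporter, had the smallest p among the genes that fell and went from 49.0 to 486 CPM in replicates 1 and 2 to 19.7, 4.24 and 7.82 CPM in replicate 3 (-4.01, SE 0.19, edgeR adjusted p = 8.96e-08). Its log2 fold change in 168FARN was -0.98 (SE 0.14). *Trib3* fell by 2.88 on the log2 scale in 67NR (SE 0.16, edgeR adjusted p = 2.26e-07), *Ddit3* by 2.75 and *Nupr1* by 2.48. *Cth*, an enzyme of cysteine synthesis, fell by 2.01 there (edgeR adjusted p = 2.1e-07), and so did *Cyb5r1* (-2.01) and *Angptl6* (-3.74), of which *Angptl6* was among the 12 lower genes of 168FARN. *Asns* fell by 1.46 in 67NR (edgeR adjusted p = 8.66e-06).

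The tRNA synthetases, many of them ATF4 targets, went in different directions, with 8 of 20 called higher and 1 lower in 168FARN (*Hars* at 2.43, *Sars* at -0.85) and 0 rising and 9 falling in 67NR. Chaperones of the endoplasmic reticulum were lower in 7 of 20 genes and higher in 1 in 168FARN, and 13 of 20 fell and 0 rose in 67NR. *Hspa5*, which encodes BiP, was at 3090 to 4530 CPM and then at 2540, 2160 and 1890 CPM in 168FARN (-0.86, SE 0.12), and fell by 2.27 on the log2 scale in 67NR (SE 0.18, edgeR adjusted p = 2.18e-06). *Xbp1*, a transcription factor of the unfolded protein response, had -1.20 in 168FARN and -1.58 in 67NR.

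Targets of p53 were lower in replicate 3, with 14 of 24 called lower and 1 higher in 168FARN and a median of -0.83. *Fas*, a death receptor, was at 4.88 to 12.8 CPM and then at 0.860, 0.480 and 0.222 CPM (-4.01, SE 0.21), and *Gdf15*, a stress cytokine that ATF4 also induces, was at 3.46 to 7.18 CPM and then at 0.952, 0.240 and 0.296 CPM (-3.53, SE 0.29). *Bbc3*, which encodes PUMA, had -3.01 and *Trp53inp1* -2.83. In 67NR, 12 of 25 fell and 0 rose, and *Trp53inp1* fell by 1.68 on the log2 scale (SE 0.11, edgeR adjusted p = 5.28e-07). *Cdkn1a* had -0.99 in 168FARN and fell by 1.02 in 67NR (edgeR adjusted p = 0.000553).

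Of 15 FOXO and glucose-sensing targets in 168FARN, 11 were called lower and 1 higher, with a median of -1.07. *Txnip*, an inhibitor of glucose uptake, was at 214 to 345 CPM and then at 39.3, 27.3 and 33.6 CPM (-3.07, SE 0.15), and *Fbxo32*, a ubiquitin ligase of muscle wasting, had -2.90. *Trim63*, the other ligase of that kind, had 0.395 CPM in WT and 0 CPM in both KO libraries of replicate 3, under 2.47 to 6.73 CPM in replicates 1 and 2. In 67NR 3 of 13 genes fell and 0 rose. Of 27 lysosome and autophagy genes 16 were called lower and 1 higher, among them the autophagy receptor *Sqstm1* at 1270 to 1860 CPM and then at 592, 430 and 525 CPM (-1.59, SE 0.12), and 7 of 27 fell and 1 rose in 67NR. *Sqstm1* fell by 1.97 there (edgeR adjusted p = 1e-06). Of 23 AP-1 and immediate early genes 14 were called lower and 0 higher, led by *Zfp36* (-2.54), which degrades cytokine mRNAs, and *Jund* (-2.10), and 5 of 24 fell and 1 rose in 67NR. Of 17 circadian clock genes 8 were called lower and 1 higher, with *Dbp*, an output factor of the clock, at 102 to 132 CPM and then at 12.9, 9.98 and 18.3 CPM (-3.12, SE 0.16). In 67NR 4 clock genes fell and 1 rose, and *Dbp* had there a log2 fold change of 0.08 (SE 0.19, edgeR adjusted p = 0.746).

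Matrix genes were of both directions. Of 22 matrix and matricellular genes other than collagens 11 were called lower and 5 higher, and of 25 collagens and their modifying enzymes 8 were called lower and 3 higher, where 25.9% and 22.4% of all genes tested were. With the GC trend removed, 6 of the 25 collagen genes were called lower and 5 higher, and without WT replicate 3, 9 were lower and 1 higher. *Fn1*, fibronectin, was at 3210 to 5350 CPM in replicates 1 and 2 and at 731, 953 and 1370 CPM in replicate 3 (-2.10, SE 0.12), while the matricellular protein *Tnc* was higher (2.23, SE 0.12). *Fn1* fell by 1.01 in 67NR (edgeR adjusted p = 0.000358), where 4 of 26 matrix genes fell and 6 rose, and 8 of 26 collagen genes rose and 0 fell. Of 13 matrix metalloproteinases and inhibitors 8 were called lower and 2 higher, among them *Mmp9* (-3.19), *Mmp19* (-2.41) and *Mmp11* (-2.37) against *Mmp10* (2.40). *Mmp3*, a stromelysin, did not follow the replicate number. It lay between 6.43 and 39.5 CPM in replicates 1 and 2 and at 4.67, 33.5 and 25.6 CPM in replicate 3, with a log2 fold change of -0.25 (SE 0.14). In 67NR, 8 of 16 genes of the list fell and 1 rose. *Mmp3* fell there by 0.71 (SE 0.18, edgeR adjusted p = 0.00596), with overlap between 24.1 to 134 CPM and 13.9, 52.6 and 58.0 CPM.

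Of 30 splicing factors 14 were called higher and 6 lower in 168FARN, with *Srsf3* (2.19) and *Srsf2* (1.97) against the kinase *Clk1* (-1.53), or 9 higher and 6 lower with the GC trend removed, and 6 rose and 4 fell in 67NR. Of 12 nuclear long non-coding RNAs and small nucleolar RNA hosts 7 were called lower and 1 higher. *Malat1* was at 3050 to 4960 CPM in replicates 1 and 2 and at 805, 631 and 956 CPM in replicate 3, and *Neat1* at 291 to 597 CPM and then at 184, 144 and 227 CPM, both without overlap. In 67NR, *Neat1* rose by 0.85, and 3 of 14 genes of the list rose and 4 fell. Of 27 glutathione and NRF2 genes 4 were called higher, such as *Gpx1* (1.52), and 10 lower, such as *Gstm1* (-2.63), and 9 rose and 2 fell in 67NR. Of 19 ERK feedback genes 6 were called higher, led by the phosphatase *Dusp5* (2.52), and 1 lower, or 7 and 3 without *Kmt2c* KO replicate 3, and 1 rose and 5 fell in 67NR.

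Targets of YAP and of TGF-beta were of both directions, with 7 of 19 higher and 5 lower and with 5 of 19 higher and 5 lower in 168FARN, and with 3 of 19 rising and 3 falling and 4 of 17 rising and 1 falling in 67NR. The shares of all genes tested were 22.4% higher and 25.9% lower in 168FARN, and 15.3% rising and 13.4% falling in 67NR. In 168FARN the YAP list had 6 higher and 3 lower without *Kmt2c* KO replicate 3, and the TGF-beta list 3 and 6 without *Kmt2d* KO replicate 3. *Ctgf*, a matricellular YAP target, was at 0 to 0.238 CPM and then at 1.81, 0.961 and 1.07 CPM in 168FARN. Contractile genes had 2 of 10 higher, among them *Flna* (1.26), and 2 lower, among them *Des* (-2.38), and 2 of 9 rose and 0 fell in 67NR. Of 12 glucocorticoid targets 3 were called higher and 5 lower. *Tsc22d3*, which encodes GILZ, was at 37.4 to 51.2 CPM and then at 12.6, 10.5 and 11.3 CPM (-1.93, SE 0.12), and fell by 1.38 in 67NR (edgeR adjusted p = 1.39e-06), where 2 of 12 rose and 1 fell.

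Both methyltransferase genes that were edited had less mRNA in replicate 3 of 168FARN, in all 3 genotypes. *Kmt2c* was at 83 to 137 CPM in replicates 1 and 2 and at 44.7, 46.9 and 46.5 CPM in replicate 3 (-1.17, SE 0.14). *Kmt2d* was at 159 to 296 CPM and then at 104, 106 and 136 CPM (-0.82, SE 0.11). Neither gene overlapped between the sets. *Kdm6a*, the H3K27 demethylase of the same complexes, had -0.28 (SE 0.15) and overlapped. Of 18 subunits of COMPASS complexes 4 were called higher and 3 lower, where 22.4% and 25.9% of all genes tested were. *Kmt2a*, a gene of this list that was not edited, was also lower without overlap, at 131 to 223 CPM and then at 81.3, 85 and 91.1 CPM. Of these 18 subunits 2 rose and 0 fell in 67NR, where *Kmt2c* had a log2 fold change of -0.12 (SE 0.10, edgeR adjusted p = 0.315) and *Kmt2d* one of -0.39 (SE 0.14, edgeR adjusted p = 0.0314), neither of which was called. Of 29 other chromatin regulators 9 were called higher and 5 lower. Among them, the maintenance methyltransferase *Dnmt1* (1.95) and *Ezh2* (1.57) were higher and *Ezh1* (-1.41), *Kdm6b* (-2.49) and *Kdm5b* (-2.24) were lower in 168FARN. These 5 moved in the same direction in 67NR, with log2 fold changes of 1.08, 0.83, -0.91, -1.25 and -1.15 and edgeR adjusted p-values of at most 4.19e-05. *Dot1l*, also of this list, was at 13.8 to 24.4 CPM and then at 45.2, 39.6 and 35.2 CPM in 168FARN. In 67NR *Dot1l* overlapped, at 18.9 to 32.1 CPM and then at 22.5, 25.3 and 20.8 CPM. Of the 30 genes of the list tested in 67NR, 3 rose and 4 fell.

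Across all 11988 genes tested in both lines, 835 were called higher in replicate 3 of both, which is 31.1% of the 2685 higher genes of 168FARN and 47.1% of the 1773 that rose in 67NR, where 14.8% of all these genes rose. The genes lower in both came to 734, or 23.9% of the 3069 lower genes of 168FARN and 46.6% of the 1575 that fell in 67NR, where 13.1% of these genes fell. There were 231 genes lower in 168FARN that rose in 67NR and 178 higher in 168FARN that fell in 67NR. The difference was smaller in 67NR, with a median absolute log2 fold change of 0.40 over all genes against 0.60. In 67NR it lay along the second principal component (20.3% of the variance), behind genotype. One 67NR library of the contrast, *Kmt2d* KO replicate 3, had 28.7% of its reads on *Rn45s*, the ribosomal RNA precursor, against 0.495% to 2.45% in the other 67NR libraries. Without that library the counts in 67NR were 1950 higher and 1822 lower.

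Between replicates 1 and 2 of 168FARN few genes were called, which the choice of replicate 3 as the set apart favoured. Of 12285 genes tested with genotype as a block, 1 was higher in replicate 2 (0.00814%) and 12 were lower (0.0977%) by edgeR's quasi-likelihood test, and 1194 had an unadjusted p under 0.05. The median absolute log2 fold change of this fit was 0.10. The fit has 1 term for replicate 2 that all genotypes share, so differences that genotypes do not share are averaged. Differences of replicate 2 from replicate 1 correlated at only 0.0426 to 0.109 between genotypes. The fit left 2 residual degrees of freedom, against 5 in the replicate 3 fit of 168FARN. Leaving out a *Kmt2c* KO library gave 21 to 22 higher and 29 to 31 lower genes, leaving out a WT library 5 higher and 27 to 28 lower, and leaving out a *Kmt2d* KO library 2 higher and 11 lower. *Pcdhgc3*, a protocadherin, was the gene called higher, with a log2 fold change of 0.84 (SE 0.16, edgeR adjusted p = 0.00652). The smallest p-values on the lower side belonged to the microRNA gene *Mir703* (-0.77), *Zbed6* (-1.08), a transcription factor gene inside an intron of another gene, *Ogt* (-0.59), which attaches O-GlcNAc to proteins, and the long non-coding RNAs *Xist* (-0.59) and *Firre* (-0.64). *Ogt* and *Xist* missed the fold that a call needs. None of the 36 gene lists with tested members held a gene called between replicates 1 and 2.

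The replicate 3 difference was also compared between the genotypes, with 1 replicate 3 library in each and the spread taken from replicates 1 and 2. By edgeR's quasi-likelihood F test of both interaction terms, 1107 of 12253 genes (9.03%) had an adjusted p under 0.1, and 2616 had an unadjusted p under 0.05. With the replicate block, which takes replicates 1 and 2 as separate levels, the number was 2128. Of the 1107 genes, 728 (65.8%) moved the same way in all 3 genotypes, against 78.1% of all tested genes. In 571 of those 728 (78.4%) the WT difference was the smallest, against 49.9% of all genes that moved one way. The spread of the log2 differences over all genes had an SD of 1.13 in WT cells, and the values for the *Kmt2c* KO and the *Kmt2d* KO were 1.40 and 1.33. A difference between genotypes and a difference between these 3 libraries cannot be told apart, and a dependence on genotype is not shown. Without the only replicate 3 library of a genotype, the test compares the remaining genotypes only, so its number is not that of the same test. Without WT replicate 3 the number was 38, without another WT library or any *Kmt2c* KO library it was 203 to 430, and without *Kmt2d* KO replicates 1, 2 and 3 it was 2853, 3403 and 1639.

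*Cox6a2* and *Trib3* had the smallest p-values of the interaction. The log2 differences of *Cox6a2* by genotype were -4.31, -6.89 and -6.88, and those of *Trib3* were -1.79, -3.46 and -3.38. Ribosomal proteins (47 of 77), oxidative phosphorylation (38 of 74) and the ATF4 list (18 of 30) held the most genes with an interaction, against 9.03% of all genes tested. DNA replication and mitosis held 1 each. The list median of oxidative phosphorylation was 0.31, -0.42 and -0.05 in the order WT, *Kmt2c* KO, *Kmt2d* KO. That of the ATF4 list was -0.49, -0.95 and -1.27 in the same order. By their list medians the proliferation genes thus had similar shifts in the 3 genotypes, and the lists of ribosomal proteins, interferon and ATF4 did not. Each genotype has 1 replicate 3 library, so this may be a difference between libraries.

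**Figure D4:**
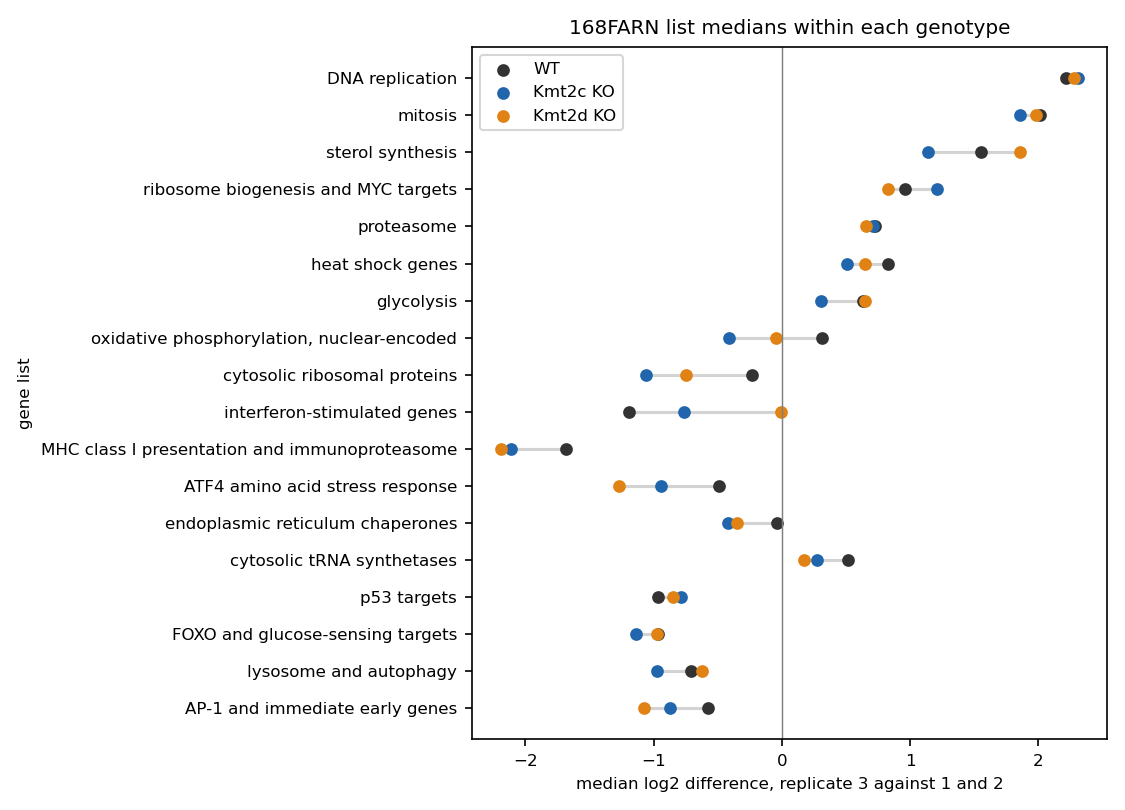
Median log2 difference of replicate 3 from replicates 1 and 2 within each of the 3 genotypes of 168FARN for 18 gene lists, with 1 point per genotype and 1 replicate 3 library behind each point. The points of DNA replication lie within 2.22 to 2.31, and those of interferon-stimulated genes range from -1.19 in WT to -0.0036 in the *Kmt2d* KO.

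The difference went with the base composition of the genes in 168FARN. In 5 equal groups of the genes ordered by the GC content of their exons, known for 92.9% of tested genes, the median log2 fold change went from 0.21 in the lowest group to -0.40 in the highest, and the share called lower went from 15.3% to 39.9%. In 67NR the medians ran from -0.10 to 0.03. By exon length, the group of the shortest genes had a median of -0.13 in 168FARN and of 0.30 in 67NR, and that of the longest 0.01 and -0.17. When the trend with GC content was removed in each library, 2537 genes were higher and 2770 lower of 11380, of which 2191 and 2491 were called without that step. MHC class I then had a median of -1.53, with 11 of 16 genes called lower, and ribosomal proteins had 40 called lower and 1 higher of 76. The part of base composition in these differences was not tested beyond that.

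**Figure D5:**
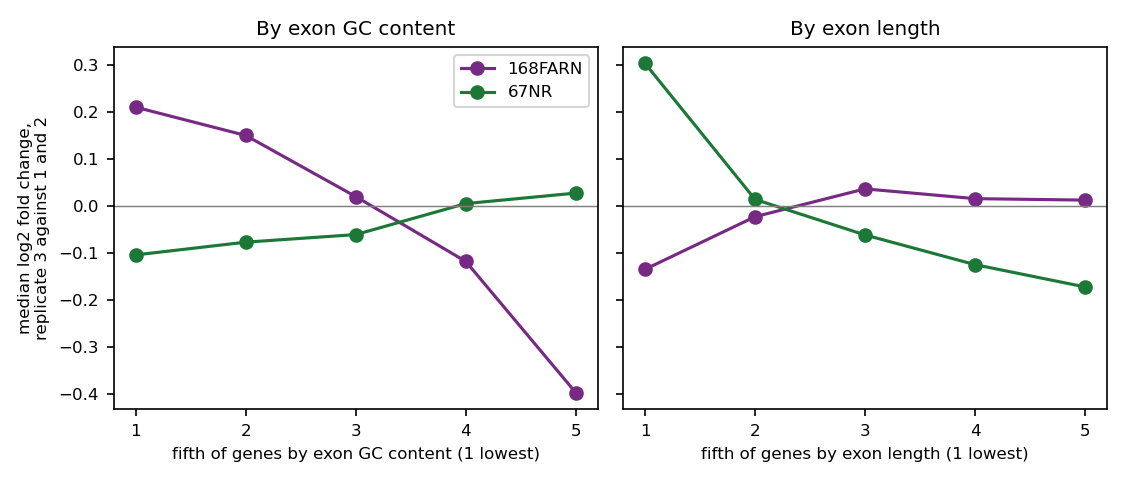
Median log2 fold change of replicate 3 against replicates 1 and 2 in 5 equal groups of the tested genes ordered by exon GC content (left) and by exon length (right), with 168FARN in purple and 67NR in green. In 168FARN the median falls from 0.21 to -0.40 with GC content, and in 67NR it falls from 0.30 to -0.17 with length.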

How the data were processed

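Libraries were prepared by the authors with a strand-specific poly(A) kit, sequenced and aligned to mm9 with STAR within the VIPER pipeline. The authors deposited raw counts per gene symbol, 1 table per line, and whether counting used the strand is not given in the sources used here. The number of columns without a sample was 0. The members and gene lists were chosen with earlier results of these data known.

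Counts were filtered by genotype with filterByExpr, scaled by TMM and fitted with edgeR's quasi-likelihood test (edgeR 4.0.16, limma 3.58.1, R 4.3.3), with genotype as a block and Benjamini-Hochberg adjustment over all genes tested. Replicate 3 against replicates 1 and 2 was fitted in each line, replicate 2 against 1 and the genotype by replicate 3 interaction in 168FARN. The SE was taken as the size of the log2 fold change over root F. Precision follows the depth of 14359760 to 43427382 counts in 168FARN and of 40951775 to 79251530 in 67NR. The fits were tested on simulated data. DESeq2 1.42.0, other filters, thresholds, blocks and left-out libraries were alternatives, and the removal of the GC trend was added after seeing the data. Genes named were the 12 with the largest called differences in each direction without overlap and with a mean of at least 10 CPM in the higher set, up to 6 called members of each list and members needed to describe it, the 5 smallest p-values of each other test, and *Kmt2c*, *Kmt2d*, *Kdm6a* and *Mmp3*. Predicted genes and pseudogenes by symbol were left out of that naming.

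Of 24385 symbols, 20510 matched the GENCODE annotation of mm9 by name and 1464 by an older name through RefSeq synonyms. Figures were drawn with matplotlib 3.10.9. The pairing of libraries by replicate number was checked by correlating deviations from the genotype means. Libraries of replicate 3 correlated at 0.856 to 0.897 across genotypes of 168FARN and at 0.535 to 0.717 in 67NR. Those that shared number 1 or 2 correlated at 0.65 to 0.738 and 0.351 to 0.426, and libraries numbered 1 with libraries numbered 2 at 0.623 to 0.728 and 0.284 to 0.523. The numbers therefore pair the libraries through replicate 3, which is the contrast itself, and hardly separate 1 from 2.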

Additional observations from a re-analysis of the deposited data

Results flagged for a closer look

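The replicate 3 differences of the 3 genotypes, each with 1 replicate 3 library, were unequal in 1107 genes of 168FARN. These had an adjusted p under 0.1 by edgeR's quasi-likelihood F test of the interaction. Without WT replicate 3 the test compares only the *Kmt2c* KO with the *Kmt2d* KO. The 5 smallest adjusted p-values by this edgeR test are given here because the differences of the 3 replicate 3 libraries were unequal. *Cox6a2* had an adjusted p of 0.00037 (edgeR), with log2 differences of -4.31, -6.89 and -6.88 in the order WT, *Kmt2c* KO, *Kmt2d* KO. *Trib3* had 0.000439 (edgeR adjusted p), with -1.79, -3.46 and -3.38 in the same order. *Pet100*, a factor of cytochrome c oxidase assembly, had 0.000577 (edgeR adjusted p), with 0.73, -1.54 and -0.10. *Aldh3a1*, an aldehyde dehydrogenase, had 0.000577 (edgeR adjusted p), with -1.83, -1.68 and 0.12. *Btc*, the growth factor betacellulin, had 0.000577 (edgeR adjusted p), with -0.86, 1.44 and 0.85. *Cox6a2*, *Trib3* and *Btc* had no call without WT replicate 3, where only the *Kmt2c* KO and the *Kmt2d* KO are compared. *Aldh3a1* had none without *Kmt2d* KO replicate 3, where only WT and the *Kmt2c* KO are compared. These are tests of other contrasts, and genotype and library cannot be told apart.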

How the results depend on the processing

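Each genotype and number has 1 library, so 1 library stands behind every replicate 3 value of a genotype. At the stricter threshold (adjusted p under 0.05, log2 fold change beyond 1 either way), 1498 genes were higher and 1946 lower in 168FARN, 1066 rose and 625 fell in 67NR, 430 were higher and 244 lower in both lines, and 0 and 3 differed between replicates 2 and 1. The interaction at an adjusted p under 0.05 had 613 genes. Without the genotype block, 1309 rose and 1052 fell in 67NR and 422 were lower in both lines. Without a filter on low counts, 3 genes were higher in replicate 2 and 1878 had an interaction. DESeq2 called 7 genes lower in replicate 2. With the replicate block the interaction had 2128 genes, and the block moved no other count of calls by over 1.5 times.

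Leaving out 1 library gave 2603 to 2919 higher and 3015 to 3361 lower genes in 168FARN, 1950 to 2267 rising and 1759 to 2034 falling in 67NR, and 790 to 873 higher and 716 to 768 lower in both lines. It gave 2 to 22 higher and 11 to 31 lower between replicates 2 and 1, and 38 to 3403 with an interaction. The interaction count was 430 without WT replicate 1, 203 without WT replicate 2 and 38 without WT replicate 3. It was 223, 349 and 329 without *Kmt2c* KO replicates 1, 2 and 3, and 2853 and 3403 without *Kmt2d* KO replicates 1 and 2. Without the only replicate 3 library of a genotype, the interaction test compares the remaining genotypes only. The cause of the other changes in this count was not tested. *Cox6a2*, *Trib3* and *Btc* thus had no interaction call without WT replicate 3, where the *Kmt2c* KO is compared with the *Kmt2d* KO. *Aldh3a1* had none without *Kmt2d* KO replicate 3, where WT is compared with the *Kmt2c* KO. No value changed direction under these alternatives among those called. Each list median was compared under the alternatives with the SD of that list's medians in the 3 genotypes of 168FARN. Of the list medians of both lines, 1324 moved by less than that SD and 114 did not. The SD of 168FARN was used for 67NR too, and it is wide for lists that differed between genotypes.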
